A study of Mus musculus with 4 samples.

Results

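RFX2 peaks at divergent gene pairs are the binding regions that reach the promoters of neighbouring genes transcribed in opposite directions. They were taken from the combined peak list of an RFX2 ChIP-seq experiment in mouse testis, in which DNA bound by RFX2 is enriched with an antibody and sequenced. A peak was included when at least 1 bp of it fell in the promoters, taken as 1000 bp upstream to 500 bp downstream of the 5′-most transcription start site (TSS), of at least 2 genes on opposite strands. Protein-coding and lncRNA genes were counted, and at least 1 gene of each pair was protein-coding. The rule was met by 220 of 2726 peaks (8.07%), or 26.3% of the 837 peaks at protein-coding promoters. It used peak extent and annotation, not peak strength or sequence. A wider peak can reach a second promoter more easily, and 194 peaks met the rule when the summit itself had to lie in both promoters.

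Chromatin came from testes of wild type (WT) mice on a mixed C57BL/6, 129/Sv and FVB/N background, in 2 experiments that each gave 1 ChIP sample with an anti-RFX2 antibody and 1 input. How many animals entered each is not given in the sources used here. The labels give an age of postnatal day 29 to 30 and decapsulated testis, whereas the text of the study describes dissociated germ cells from younger mice, and the peak lists cannot settle which is right. All samples were WT, so binding was described and no treatment or genotype was compared. The lists hold peaks and no read counts. Read depth is therefore unknown, and input values per peak were not analysed here. A testis mixes germ and somatic cells, and the lists do not assign a cell type to a peak. By immunohistology, the study describes RFX2 in the germ line and not in Sertoli cells. Its own staining found RFX2 in spermatocytes at pachytene and in early round spermatids, so the germ cell stage behind each peak is unassigned.

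RFX2 is one of the Regulatory Factor X proteins. These bind an imperfect inverted repeat known as the X-box and switch on genes for building cilia in animals from nematodes to mammals. The sperm tail is a modified motile cilium, and in the testis RFX2 is needed for round spermatids to elongate. In a divergent pair, the stretch between both starts can serve as a promoter for both genes, so that a single bound site lies upstream of either gene.

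The X-box was searched as the heptamer GTTGCCA followed directly by its reverse complement, with at most 3 mismatches in 14 bp, in the 200 bp around each summit, the position of highest signal in a peak. The palindrome reads the same on both strands. The following runs go from just before the leftmost to just after the rightmost of both starts and the X-box, on the plus strand of GRCm38, and are shown because each pair shares a strong peak with its X-box at or near a start. Capitals mark the X-box.
Cfap57/Ebna1bp2: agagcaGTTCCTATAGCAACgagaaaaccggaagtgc
B9d1os/B9d1: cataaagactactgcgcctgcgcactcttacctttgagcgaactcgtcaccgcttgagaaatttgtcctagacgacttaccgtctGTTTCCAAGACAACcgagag
AC132353.2/Dync2li1: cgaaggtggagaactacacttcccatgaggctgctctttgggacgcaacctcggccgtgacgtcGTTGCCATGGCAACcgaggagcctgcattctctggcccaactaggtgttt
Klhl18/Kif9: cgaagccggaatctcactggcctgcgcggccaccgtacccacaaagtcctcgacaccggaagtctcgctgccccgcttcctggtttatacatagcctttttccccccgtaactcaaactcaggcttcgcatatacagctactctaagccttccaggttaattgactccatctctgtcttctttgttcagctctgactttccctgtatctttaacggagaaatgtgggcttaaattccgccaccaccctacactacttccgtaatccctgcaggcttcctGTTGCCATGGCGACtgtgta
Iqcg/Rpl35a: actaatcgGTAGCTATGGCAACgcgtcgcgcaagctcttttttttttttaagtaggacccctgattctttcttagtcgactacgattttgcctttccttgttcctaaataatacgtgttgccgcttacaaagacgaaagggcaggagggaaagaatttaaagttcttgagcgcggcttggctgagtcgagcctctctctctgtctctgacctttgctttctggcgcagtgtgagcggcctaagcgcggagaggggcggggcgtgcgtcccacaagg
The Cfap57/Ebna1bp2 run (chr4:118620769-118620805) is 37 bp long, and its X-box covers the start of Cfap57, at base 9 of the run. In the B9d1os/B9d1 run (chr11:61505053-61505157) the X-box covers the start of B9d1, at base 92. The AC132353.2/Dync2li1 run (chr17:84626389-84626502) holds the palindrome without a mismatch, wholly between the starts at bases 7 and 108. The X-box of Klhl18/Kif9 (chr9:110476688-110476986) lies just inside Kif9, and that of Iqcg/Rpl35a (chr16:33056184-33056459) just upstream of Iqcg. With positions numbered from 1 at the palindrome's 5′ end, the substitution was A12G at Klhl18/Kif9, the substitutions were T3A and C6T at Iqcg/Rpl35a, and those at Cfap57/Ebna1bp2 were G4C, C6T and G9A.

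Further members are shown by their best X-box with 20 bp on either side. They are the strongest and the weakest member, the member with the highest fold enrichment, and the other 3 of the 4 members with an unchanged palindrome.
Enkur/Thnsl1: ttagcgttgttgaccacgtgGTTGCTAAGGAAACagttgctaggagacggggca
Gm26832/Hydin: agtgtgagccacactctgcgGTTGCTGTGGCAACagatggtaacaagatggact
Gtf2f1/Gm17949: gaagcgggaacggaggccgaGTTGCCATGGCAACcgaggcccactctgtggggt
Ap3m2/1700041G16Rik: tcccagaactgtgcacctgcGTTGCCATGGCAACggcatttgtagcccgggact
Moap1/Tmem251: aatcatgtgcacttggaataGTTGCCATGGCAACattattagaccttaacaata
Wdr78/Mier1: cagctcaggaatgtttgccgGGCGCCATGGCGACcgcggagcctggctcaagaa
These runs lie at chr2:21205344-21205397, chr8:110266936-110266989, chr17:57011565-57011618, chr8:22805450-22805503, chr12:102744523-102744576 and chr4:103114239-103114292. The X-box of Enkur/Thnsl1, the strongest member, carried C6T, T8A and C11A, whereas that of Wdr78/Mier1, the weakest, carried T2G, T3C and A12G. Both thus had 3 mismatches.

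The 220 peaks met 449 genes, of which 359 were protein-coding and 90 lncRNA. Of the peaks, 9 met 3 genes and the others a single pair. For peaks with 3 genes, the opposite-strand pair nearest the summit was described. The pairs were coding/coding at 133 peaks and coding/lncRNA at 87. In 161 pairs the genes stood head to head, with the start of the minus-strand gene to the left of the other. In the remaining 59 the starts had passed each other, so that the 5′ ends overlap. The starts were 161 bp apart at the median, with a range from 1 to 1542 bp. The peaks lay on 20 chromosomes, with 2 on the X chromosome.

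The 3 strongest peaks at divergent pairs each lay beside a gene of the sperm axoneme, the microtubule core of the tail. Peak strength is given as the score in each replicate list, which is on a −log10 scale, and as −log10 p and fold enrichment over local background in the combined list. At Enkur/Thnsl1 (chr2:21204346-21206264) the score was 404 in replicate 1 and 179 in replicate 2, with a −log10 p of 415 and 29.5-fold enrichment. Enkur encodes an adaptor protein of the sperm flagellum and Thnsl1 a threonine synthase-like enzyme. The summit was 7 bp upstream of Enkur and 352 bp upstream of Thnsl1. At Klhl18/Kif9 (chr9:110476427-110477816) the scores were 274 and 191 in replicates 1 and 2, and −log10 p was 373. Kif9 encodes a kinesin of the central pair, and Klhl18 an adaptor of a ubiquitin ligase. The summit lay 16 bp inside Kif9.

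Hydin, another central pair gene, stood beside the lncRNA Gm26832 with overlapping starts (chr8:110266367-110267641), and its peak had scores of 330 and 106, a −log10 p of 364 and the highest fold enrichment of all 220, 52.2. Its summit was 15 bp upstream of Hydin and 500 bp inside Gm26832. At Cfap57/Ebna1bp2 (chr4:118620535-118621381) the starts were 22 bp apart, the scores were 265 and 108, and the summit was 1 bp from the start of Cfap57, which encodes an axonemal protein. Ebna1bp2 acts in ribosome assembly. At Iqcg/Rpl35a (chr16:33055634-33056648) the scores were 261 and 115. The summit was 20 bp upstream of Iqcg, a gene of the nexin-dynein regulatory complex, and 243 bp upstream of Rpl35a, a gene for a ribosomal protein. In these 5 pairs the summit lay at most 20 bp from the axonemal gene and farther from its neighbour.

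The 15 strongest members included 2 pairs with a gene of the transition zone, the gate at the base of the cilium, while other pairs of this list were weak, with a −log10 p of 50.6 at Tmtc3/Cep290 and 44.3 at Tctn3/Entpd1. The peak at B9d1os/B9d1 (chr11:61504313-61505955) had scores of 260 and 111, with the summit 9 bp inside B9d1. At Tmem138/Cyb561a3 (chr19:10576399-10577772) the scores were 243 and 76.3, and here the summit was closer to the partner, 62 bp upstream of Cyb561a3 and 252 bp inside Tmem138. The peak at Lrrc49/B930082K07Rik (chr9:60687088-60688923) had scores of 239 and 135, and its summit was 82 bp inside Lrrc49, which encodes a subunit of the tubulin polyglutamylase complex. At Hras/Lrrc56 (chr7:141194415-141195738), where the scores were 240 and 132, the summit was 846 bp inside Lrrc56, a gene needed for dynein arms, and 998 bp from the start of the small GTPase gene Hras. The summit was thus far from both starts.

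The other members among the 15 strongest combined less familiar genes. Scores were 246 and 121 at Stoml2/Gm26643, where Stoml2 encodes a mitochondrial membrane protein, and 261 and 107 at 1700029J07Rik/Ufsp2, where Ufsp2 encodes a protease for the modifier UFM1. They were 214 and 128 at Fam221b/Tmem8b, 234 and 97.5 at Gm49761/Ppp2r1a, which includes the scaffold subunit of protein phosphatase 2A, and 199 and 119 at Mok/4921507G05Rik, which includes a protein kinase of the MAK family. At Cfap298/4930534H18Rik the scores were 265 and 139, and Cfap298 is needed for motile cilia. The replicate 1 score exceeded the replicate 2 score in all of the 15 strongest members. Of these 15, only Gm49761/Ppp2r1a had no X-box within 3 mismatches around the summit.

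Many summits of head-to-head pairs lay outside the gap, and those inside it fell less often in its middle than next to either start. Of the 161 head-to-head pairs, 75 (46.6%, 95% Wilson interval 39.0 to 54.3) had the summit between the starts. When the gap was divided into 3 equal stretches, 26 summits fell in the stretch next to the minus-strand start, 16 in the middle and 33 in the stretch next to the plus-strand start. A further 42 lay beyond the minus-strand start and 44 beyond the plus-strand start, inside the respective gene. The 86 summits outside the gap were 39.5 bp past the nearer start at the median. Of pairs with starts 1 to 100 bp apart, 20 of 58 had the summit between them, and of pairs with starts 201 to 300 bp apart, 16 of 23. The count was 21 of 48 at 101 to 200 bp, 11 of 24 at 301 to 600 bp and 7 of 8 above 600 bp. The rule was also applied anew to each replicate list, which gave 412 peaks (replicate 1 list) and 378 (replicate 2 list). Both lists give no summit, so the peak centre was used in its place. Of the head-to-head pairs among those peaks, 28.7% (replicate 1 list) and 31.9% (replicate 2 list) had the centre between the starts.

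**Figure D1:**
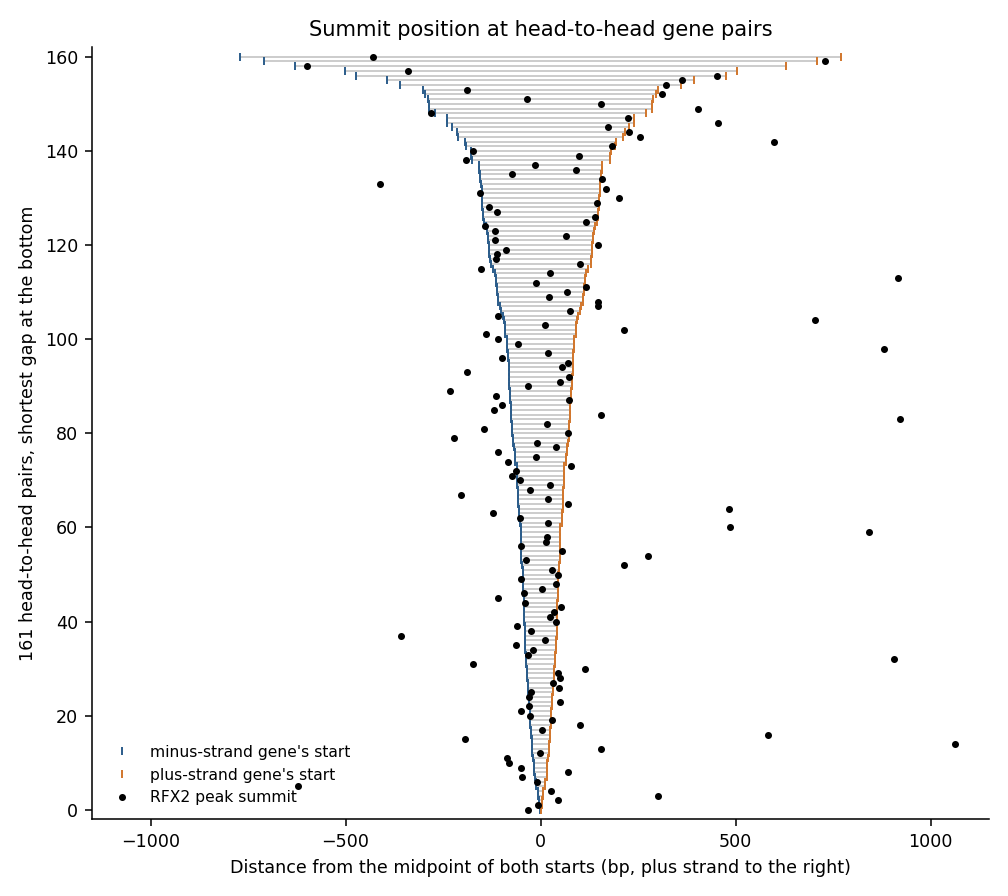
Summit position at the 161 head-to-head pairs. The horizontal axis gives the distance in bp from the midpoint of both starts and each row of the vertical axis is 1 pair, ordered by the distance between the starts. Blue and orange ticks are the minus-strand and plus-strand starts, grey lines the stretch between them, and black dots the summits, of which 75 lie between the starts and most others just outside.

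Over all 220 members the summit was 37 bp from the nearer start at the median, with quartiles of 16 and 89.3 bp, and 215.5 bp from the farther start. It was within 100 bp of at least 1 start in 169 members (76.8%) and within 100 bp of both in 57 (25.9%). Peaks that met the promoter of a single protein-coding gene and no other gene, here called single-gene promoter peaks (607), had a median distance of 99 bp to their start, and 308 of them (50.7%) lay within 100 bp. A divergent pair offers a choice of starts, which by itself shortens the distance to the nearer one, so these values were not tested. The summit came closest to the midpoint, among the 40 strongest members, at Cfap57/Ebna1bp2 and 4921536K21Rik/Dusp18, at 10 bp in both. At Cfap57/Ebna1bp2 the gap is so short that any summit in it is near the midpoint. There the summit was 1 bp from Cfap57 and 21 bp from Ebna1bp2, so it was at a start and not central. The shortest head-to-head distance was 1 bp, at Ropn1l/Gm49208 (chr15:31453106-31454245, scores 59.3 and 39.4), where Ropn1l encodes a flagellar protein. The longest was 1542 bp, at Asna1/Trir (chr8:85025367-85026101, scores 38.2 and 16.4), where Asna1 encodes an ATPase for tail-anchored membrane proteins.

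Counted by gene, listed genes of the cilium stood at divergent pairs about as often as bound genes in general. In all, 7 lists of ciliary genes were used, and they were drawn up with earlier results of these data known, so their counts are a description. The lists are not complete, as Cfap298 and Lrrc56 are in none of the 7. Below, a ciliary gene is a gene of these lists. In these lists 168 of 376 annotated genes carried a combined peak at their promoter, beside 980 of 21853 protein-coding genes in all (4.48%). Of the 168 bound ciliary genes, 58 (34.5%) were at a divergent pair, and of all 980 bound protein-coding genes 359 (36.6%). A peak at a pair counts each protein-coding gene it meets, so protein-coding partners of ciliary genes are also in the 359. This counting raises the share by gene, and by peak 220 of 837 peaks at protein-coding promoters were at a pair. A ciliary gene was in the described pair of 56 members. In 55 of these it was paired with a gene outside these 7 lists, and in 1, Cep170/Sdccag8, both genes were listed. Bbs12 was met as the third gene of a peak and so is in no described pair.

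By role, 22 of the 63 bound genes for the nexin-dynein complex, the radial spokes and the central pair were at divergent pairs. Besides Enkur, Kif9, Hydin, Cfap57 and Iqcg these included Drc3, Cfap52, Cfap61 and Ropn1l. Of 24 bound genes for dynein arms and their assembly, 9 were at pairs, among them Dnah10, a heavy chain of the arms, and Dnaaf1, Dnaaf5, Ccdc40, Ccdc103 and Ccdc151, which serve in assembling or docking them. The transition zone had 8 of 17 bound genes at pairs, which were Tmem237, Sdccag8, Cep290, B9d1, Togaram1, Tmem138, Tctn3 and Rpgrip1l. Of 20 bound genes for centrioles and basal bodies 10 were at pairs, including Cetn2 and Cep19. Intraflagellar transport, which carries cargo along the axoneme, had 4 of 20 (Ift27, Ift122, Cluap1 and Dync2li1), the BBSome with its partners 2 of 10 (Bbip1 and Bbs12), and the list of tubulin modification and ciliary GTPases 5 of 16, of which Ift27 and Dync2li1 also stand in the intraflagellar transport list. With 10 to 63 bound genes in each list, these shares are known only roughly.

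**Figure D2:**
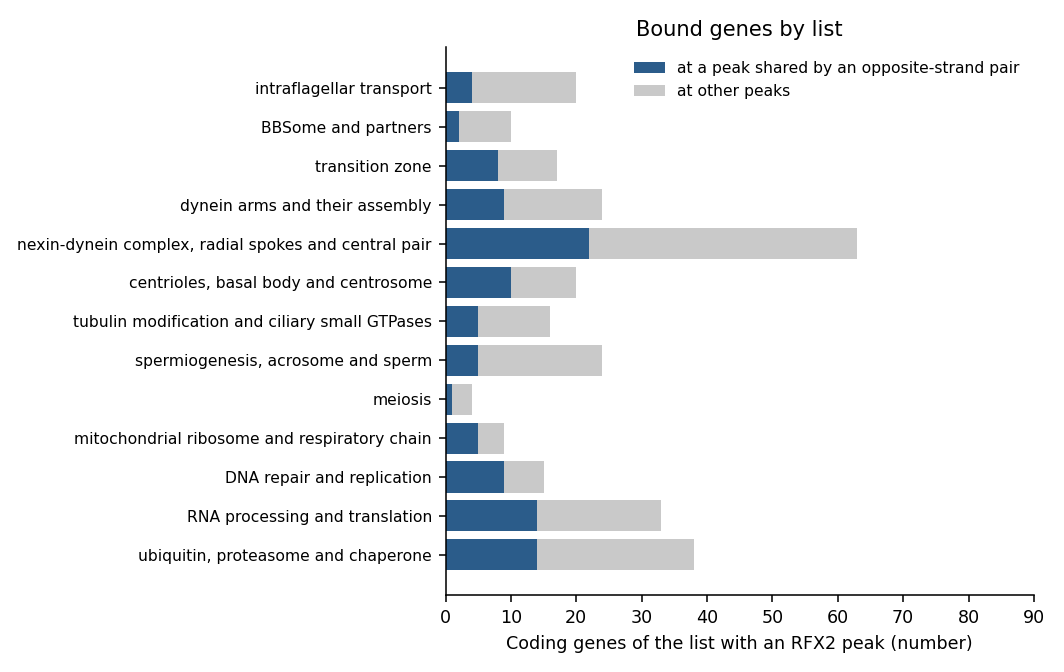
Protein-coding genes with an RFX2 peak in the promoter, by list. The horizontal axis gives the number of bound genes, with those at a peak shared by an opposite-strand pair in blue and those at other peaks in grey. The nexin-dynein, radial spoke and central pair list holds the most, 22 of 63.

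In pairs with 1 ciliary gene, the summit was usually nearer the start of the ciliary gene. This was so in 42 of 55 members (76.4%, 95% Wilson interval 63.7 to 85.6). The summit was 42 bp from the ciliary start at the median and 216 bp from the partner's. It was within 100 bp of the ciliary start in 35 members and within 100 bp of the partner's start in 15. In head-to-head pairs the count was 38 of 42 (90.5%), and in pairs with overlapping starts 4 of 13 (30.8%). By position, 25 summits of the head-to-head pairs lay inside the ciliary gene, 15 between the starts and 2 inside the partner. The count was 33 of 41 with a protein-coding partner and 9 of 14 with an lncRNA partner. Among the pairs with 1 ciliary gene that the rule gave in each replicate list, with peak centres, the share was 72.5% (replicate 1 list) and 75.3% (replicate 2 list). Those are larger sets of peaks than the members described here. The combined list was treated as a pooled call of both replicates, so the replicate lists share its reads and are not independent of it.

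Among the strongest such pairs, partners included an lncRNA and genes of translation, the endoplasmic reticulum and DNA repair. At AC132353.2/Dync2li1 (chr17:84626076-84626749), with scores of 182 and 83.0, the summit was 35 bp upstream of Dync2li1, a chain of the retrograde transport dynein, and 66 bp from an lncRNA start. At Lrrc46/Mrpl10 (chr11:97040791-97041959), with scores of 196 and 58.5, it was 23 bp inside the ciliary-list gene Lrrc46 and 176 bp from Mrpl10, a gene of the mitochondrial ribosome. At Ccdc151/Prkcsh (chr9:22001988-22003233), with scores of 168 and 108, it was 27 bp upstream of Ccdc151, which docks outer dynein arms, and 145 bp from Prkcsh, a subunit of an enzyme that trims sugars in the endoplasmic reticulum. At Mbd4/Ift122 (chr6:115852995-115854671), with scores of 171 and 92.8, it was 226 bp inside Ift122, a subunit of the retrograde transport complex, and 325 bp from the DNA glycosylase gene Mbd4. Of the 13 members in which the partner was closer, the Dnah10 peak had its summit close to both starts. It was 9 bp upstream of Dnah10 and 3 bp inside 4930404A12Rik. At Tctn3/Entpd1 the summit was 152 bp from Tctn3 and 12 bp from Entpd1.

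**Figure D3:**
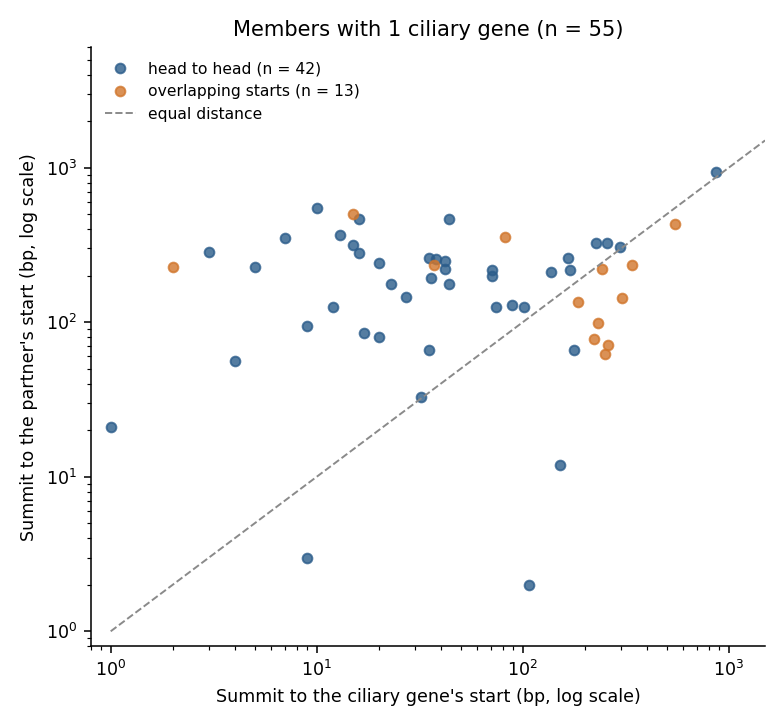
Distance in bp from the summit to the start of the ciliary gene (horizontal, log scale) and to the start of its partner (vertical, log scale) in the 55 members with 1 ciliary gene. Points above the dashed line of equal distance, 42 of 55, have the summit nearer the ciliary start. Head-to-head pairs are blue and pairs with overlapping starts orange.

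Outside the ciliary lists, divergent pairs held 9 of the 15 bound genes for DNA repair and replication, namely Brca1, Polk, Smc1b, Poll, Pole3, Rfc5, Mcm7, Rad52 and Xrcc1. They also held 5 of 9 for the mitochondrial ribosome and respiratory chain (Cox11, Mrpl10, Ndufaf7, Ndufa8 and Ndufs3), 14 of 33 for RNA processing and translation, and 14 of 38 for ubiquitin, the proteasome and chaperones. For spermiogenesis, acrosome and sperm the count was 5 of 24 (Enkur, Spaca9, Spata2, Spata4 and Rfx1), and for meiosis 1 of 4 (Smc1b). The share of all bound protein-coding genes at a pair is given above, and the 14 of 38 (36.8%) was close to it. Of the annotated genes, 15 of 151 in the repair list (9.93%) and 9 of 211 in the mitochondrial list (4.27%) were bound, beside the 4.48% of all protein-coding genes. The bound share was 7.02% in the RNA, 7.87% in the ubiquitin, 21.6% in the spermiogenesis and 9.76% in the meiosis list. The repair, mitochondrial, RNA and ubiquitin lists were made by gene symbol. Rfx1 encodes a relative of RFX2. Smc1b, a cohesin subunit of meiosis, was paired with Ribc2, a protein of axonemal microtubules, and its peak had the summit 12 bp inside Ribc2 and 126 bp from Smc1b.

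In the 87 coding/lncRNA pairs the summit was nearer the protein-coding start in 44 (50.6%, 40.3 to 60.8). It lay upstream of the protein-coding start in 52 of 87, by 32 bp at the median over all 87. The summit was between the starts in 39 of 87 coding/lncRNA pairs and in 55 of 133 coding/coding pairs. These counts include pairs with overlapping starts, where the stretch between the starts lies inside both genes. An X-box was found in 46 of 87 (52.9%) and 71 of 133 (53.4%). The difference was 0.510 percentage points, with an interval from −12.7 to 13.8 (Fisher's exact test, two-sided, adjusted p = 1). The share among the strongest 25% of the list was 37.9% in coding/lncRNA and 45.1% in coding/coding pairs, a difference of 7.18 points with an interval from −6.14 to 19.9 (exact test, adjusted p = 0.659). Neither difference passed the threshold of 0.05, and both intervals include differences of over 10 points.

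The X-box was found around the summit of 117 of the 220 peaks (53.2%, 95% Wilson interval 46.6 to 59.7). It was present in 75.4% of all combined peaks and in 2.49% of the 200 bp windows that end 50 bp downstream of the start of a protein-coding gene. The best site had no mismatch in 4 members, 1 in 5, 2 in 51 and 3 in 57. Its centre was 6.5 bp from the summit at the median and within 25 bp in 96 of 117. In 41 of the 117 the X-box lay between the starts, in 34 of 83 head-to-head pairs and 7 of 34 with overlapping starts. A second site was found in 5 members, Stoml2/Gm26643, Fam229b/Tube1, 5330417C22Rik/1700013F07Rik, Pafah1b2/Sik3 and Smpd2/Ppil6, which are named after their counts were seen. A member without a site may carry one outside the window or further from the palindrome.

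Peaks at divergent pairs were then compared with the 607 single-gene promoter peaks over 9 features, with Fisher's exact test, two-sided, and Benjamini-Hochberg adjustment over the 9. Of the 607, 345 (56.8%) held an X-box, and the difference for divergent-pair peaks was −3.66 points, with an interval from −11.3 to 3.95 (exact test, adjusted p = 0.582). At least 2 X-boxes were present in 5 of 220 and 18 of 607 (exact test, adjusted p = 0.912). The strongest 25% of the combined list by −log10 p, which with ties at its limit was 25.1% of all peaks, held 93 of 220 (42.3%) and 227 of 607 (37.4%), a difference of 4.88 points with an interval from −2.58 to 12.5 (exact test, adjusted p = 0.508). By −log10 p both kinds of promoter peak were thus above the 25.1%, and the difference between them did not pass. Ranked by fold enrichment instead, 15.9% of divergent-pair and 17.3% of single-gene promoter peaks were in the strongest 25%, so both were below it. In lists of either replicate alone, weaker peaks enter, and the quartile by score is taken over many more peaks. There the shares were 80.3% and 67.7% (replicate 1 list) and 75.1% and 66.2% (replicate 2 list). These differences did pass the exact test, at 12.6 points (replicate 1 list, adjusted p = 1.48e-06) and 8.93 points (replicate 2 list, adjusted p = 0.00486). They concern other peaks at another cut-off, and the part of peak width in them was not tested.

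Divergent-pair peaks were more often CpG-rich, which here means a G+C content above 50% and a ratio of observed to expected CpG above 0.6 in the 200 bp around the summit. This was so in 166 of 220 (75.5%, 69.4 to 80.7) and in 384 of 607 single-gene promoter peaks (63.3%, 59.4 to 67.0), beside 25.3% of all combined peaks and 45.4% of the windows at protein-coding starts. The difference of 12.2 points (5.04 to 18.7) passed the test (Fisher's exact test, two-sided, adjusted p = 0.0100). By the exact test the call was lost with protein-coding genes alone (11.1 points, adjusted p = 0.0594), with head-to-head pairs alone (11.3 points, adjusted p = 0.0793) and in the stronger 50% of the list (8.38 points, adjusted p = 0.294), and the direction was the same in each. Summits of divergent-pair peaks were also closer to a start, as given above, and the part of that distance in the CpG difference was not tested. The X-box share was 53.6% (89 of 166) in CpG-rich and 51.9% (28 of 54) in other divergent-pair peaks. In the whole combined list it was 56.8% and 81.7%, so the share of CpG-poor divergent-pair peaks was below that of CpG-poor peaks in general. That list is mostly outside promoters, as 837 of its 2726 peaks met a protein-coding promoter. Single-gene promoter peaks of any CpG content held an X-box in 56.8%, and their CpG-poor share is not given here. Whether the lower share is particular to divergent pairs was not tested.

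**Figure D4:**
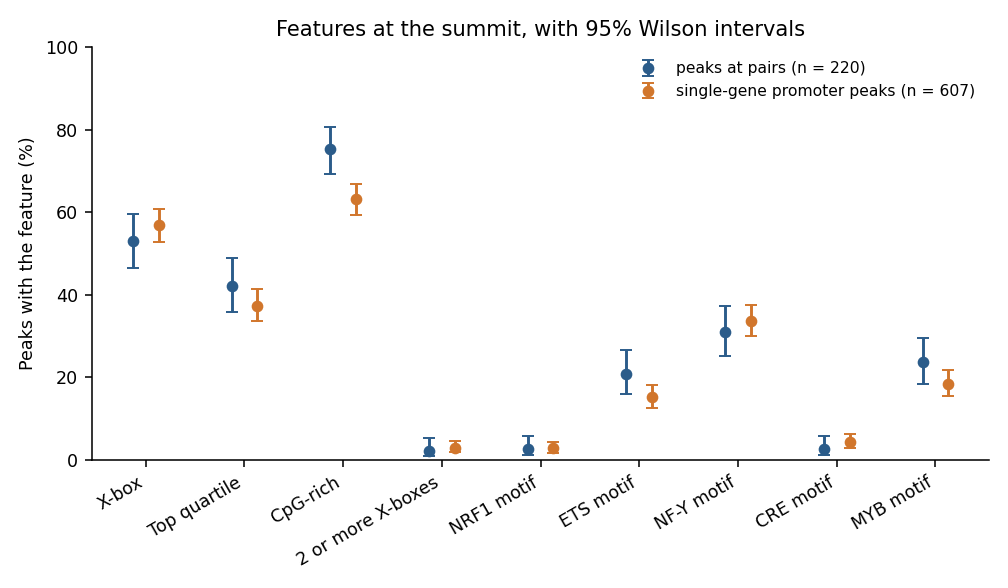
Percentage of peaks with each feature around the summit (vertical axis) for the 220 peaks at pairs (blue) and the 607 single-gene promoter peaks (orange), with 95% Wilson intervals. The CpG-rich share, 75.5% and 63.3%, is the only one of the 9 that differed past the threshold.

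Motifs of 5 other factors that act at promoters were searched on both strands in the same windows, and were counted whether or not they overlapped an X-box or each other. The ETS motif CCGGAAG, bound by a large family of activators, was present in 46 of 220 divergent-pair and 92 of 607 single-gene promoter peaks (20.9% and 15.2%, exact test, adjusted p = 0.258), beside 9.59% of the windows at protein-coding starts. It can be read in the Cfap57/Ebna1bp2 run above as accggaagt. The MYB motif TAACNG, bound by MYBL1, a regulator of male meiosis, was present in 52 and 112 peaks (23.6% and 18.5%, exact test, adjusted p = 0.342), beside 13.9% of the windows. The NF-Y motif CCAAT was found in 30.9% and 33.8% (exact test, adjusted p = 0.582), beside 30.6% of the windows. The CRE motif TGACGTCA, bound by CREM, was present in 6 and 26 peaks (2.73% and 4.28%, exact test, adjusted p = 0.582) and the NRF1 motif GCATGCGC in 6 and 17 (2.73% and 2.80%, adjusted p = 1), beside 2.22% and 2.97% of the windows. None of these 5 differences passed Fisher's exact test after adjustment, and none had an unadjusted p under 0.05. The ETS difference, whose unadjusted p was 0.0573, did pass the exact test with promoters of 500 bp upstream to 50 bp downstream (8.75 points, adjusted p = 0.0441) and in both replicate lists.

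All 220 peaks overlapped a peak in each replicate list. The study kept peaks by their reproducibility between the replicates, so this overlap may follow from how the combined list was made. The score ranged from 22.9 to 404 in replicate 1, with a median of 81.7, and from 10.3 to 191 in replicate 2, with a median of 42.6. Replicate 1 was higher in 208 of 220. Read depth, on which such scores depend, is unknown, so the levels of the replicates are not comparable. The order of the members was similar in both (Spearman's rho 0.81 over 220 peaks, which share their reads with the combined list). All 220 were in the top 10% of the 39825 peaks of replicate 1, and 209 in the top 10% of the 21274 of replicate 2. The study's selection favours peaks with high and similar ranks in both replicates, so these counts and the rho may also follow from it. The same counts over all combined peaks are not given here. The replicates differed most in rank at Ywhaq/Gm4419 (chr12:21417505-21418495), where the scores were 101 and 18.8 in replicates 1 and 2, and at Etos1/Btbd16 (chr7:130773513-130774551), where they were 31.6 and 46.7. Ywhaq encodes a 14-3-3 protein. The weakest members were Wdr78/Mier1 (chr4:103113890-103114426, scores 34.4 and 14.6), 1700104B16Rik/Gtf2e2 (chr8:33731515-33732016, 33.7 and 16.9) and Tctn3/Entpd1 (chr19:40612101-40612698, 31.9 and 15.3), with a −log10 p of 43.6, 44.0 and 44.3. Wdr78 encodes a chain of axonemal dynein, Tctn3 a transition zone protein and Gtf2e2 a subunit of a general transcription factor, so genes of the cilium stood at both ends of the range.

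**Figure D5:**
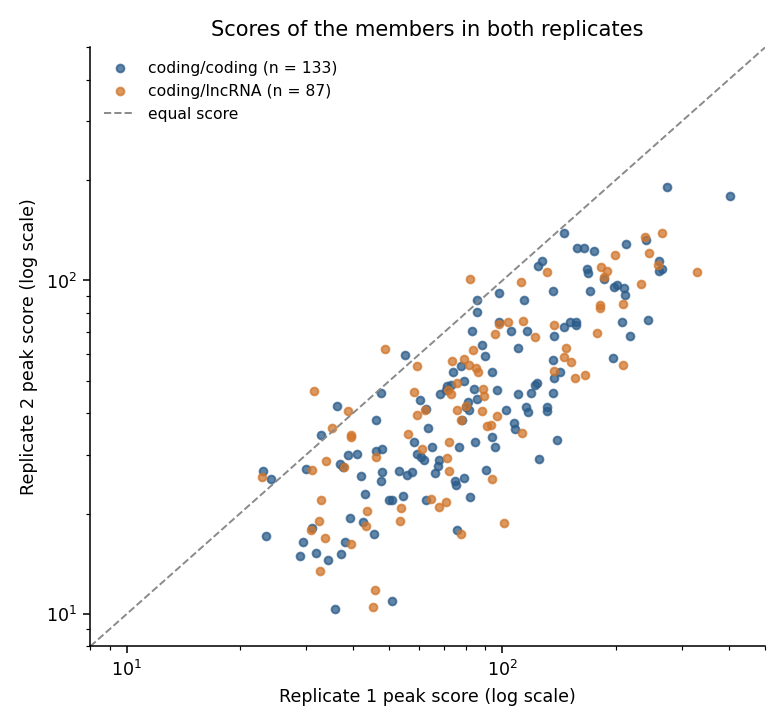
Score of each of the 220 members in the replicate 1 list (horizontal, log scale) and the replicate 2 list (vertical, log scale). Blue points are coding/coding and orange points coding/lncRNA pairs, and most points, 208 of 220, lie below the dashed line of equal score.

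In the combined list −log10 p ranged from 43.6 to 415 over the members, with a median of 113, beside medians of 105.6 for single-gene promoter peaks and 82.1 for all peaks. Fold enrichment ranged from 5.46 to 52.2 with a median of 14.1, beside 14.8 and 17.0. Both measures thus ordered these groups differently. By the distance between starts, the median −log10 p was 98.2 in pairs 1 to 100 bp apart (58 pairs), 135 at 101 to 200 bp (48), 119.9 at 201 to 300 bp (23), 129 at 301 to 600 bp (24) and 117 above 600 bp (8), and 108.9 in pairs with overlapping starts (59). The 56 members with a ciliary gene had a median of 128.8 and the other 164 one of 110.5. Peak width was 896.5 bp at the median, with a range from 275 to 2087 bp, and 880.0 bp in single-gene promoter peaks.

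Seen from the genome, close head-to-head pairs were bound more often than genes standing alone. Of 776 annotated head-to-head pairs of protein-coding genes with starts at most 1000 bp apart, 102 had 1 combined peak that reached both promoters (13.1%, 10.9 to 15.7). Of 18041 protein-coding genes without an opposite-strand start of a protein-coding or lncRNA gene within 1000 bp, 614 had a peak (3.4%, 3.15 to 3.68). When only CpG-rich starts were counted, an alternative chosen after seeing the data, the shares were 13.1% (74 of 566) and 5.69% (402 of 7068). The intervals cover counting error only, the promoters of a pair span more sequence than that of 1 gene, and the part of that span in the difference was not tested.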

How the data were processed

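RFX2 ChIP-seq was done on testes of WT mice in 2 experiments, with 1 ChIP and 1 input sample from each (4 samples). The submitters' processing notes name CASAVA 1.8.2, Bowtie 0.12.7, MACS2 2.0.10.20130520 and GRCm38. The authors discarded reads that mapped to several places and called peaks against input without a fragment model. They cleared a second run of replicate 2 of human reads. The combined list was deposited with replicate 2, and its peak names mark it as a call on all samples. It was treated here as a pooled call, and per the study's methods reproducible peaks were kept by the irreproducible discovery rate between the replicates, so overlap with a replicate list is not independent replication.

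For each peak of the combined list the authors deposited the summit position, the fold enrichment ratio, and the −log10 of a p-value and of a q-value. For each replicate list they deposited a score on a −log10 scale, whose source, p or q, is not stated. Discarding reads that map to several places lowers peaks in repeats and near-identical genes. Depth is unknown, and no read counts were used.

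Promoters came from GENCODE release 21 for mouse (protein-coding and lncRNA genes), and sequence from RefSeq GRCm38.p6. Members were found with Python 3.11.15, pandas 2.3.3 and NumPy 2.4.6, and sequence was read with pysam 0.24.0. Shares were compared with Fisher's exact test (two-sided, SciPy 1.17.1) and Benjamini-Hochberg adjustment over 9 tests against single-gene promoter peaks and over 2 between kinds of pair. Intervals are 95% Wilson or, for differences, Newcombe intervals, and cover counting error only. Peaks are not replicates of a condition, and neighbouring peaks are not independent. The steps were tested on simulated data.

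Named members were the 15 highest by −log10 p, members with ciliary genes (values for those among the 40 strongest), the 3 weakest, the shortest and longest head-to-head distance, the 2 summits nearest the midpoint among the 40 strongest, and the 2 with replicate ranks farthest apart. Other members are named as examples chosen after their values were seen. Members and gene lists were chosen with earlier results of these data known. Alternatives covered promoter size, annotation, list cut-off, replicate list, mismatches, search window and strength measure.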

Additional observations from a re-analysis of the deposited data

How the results depend on the processing

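The count of 220 peaks became 137 with protein-coding genes alone and 378 to 412 in the replicate lists. Against single-gene promoter peaks, the top-quartile difference turned to −3.12 points in the stronger 50% of the list and −1.39 by fold enrichment, and was 8.93 to 12.6 in the replicate lists, where it passed. The CpG-rich difference was 11.1 points with protein-coding genes alone, 11.3 in head-to-head pairs and 8.38 in the stronger 50%, no longer past the threshold, and 16.9 to 22.7 in the replicate lists. The difference in peaks with at least 2 X-boxes was 0.0461 with protein-coding genes alone and −0.0196 to 0.272 in the replicate lists. Of the 5 other motifs, 1 (ETS) passed with narrower promoters and in each replicate list. The NRF1 difference turned to 0.190 with protein-coding genes alone, 0.926 in head-to-head pairs, 0.432 in the stronger 50% and 0.546 around the peak centre, the NF-Y difference to 1.06 in the stronger 50%, and the MYB difference ran from −0.190 to 2.57 in the replicate lists. The X-box difference between coding/coding and coding/lncRNA pairs turned to −2.87 with narrower promoters, −0.893 with the summit inside both promoters, −0.519 with at most 2 mismatches and −4.49 over the whole peak, and ran from −2.34 to 0.966 in the replicate lists. Their top-quartile difference turned to −3.25 by the replicate 2 score. The share of summits between starts was 28.7% to 31.9% in the replicate lists, where the peak centre stood in for the summit. The share nearer the ciliary start was 90.5% in head-to-head pairs. The share of head-to-head pairs bound was 9.79% in the stronger 50% and 21.01% to 23.3% in the replicate lists. The cause of these changes was not tested. No paired analysis was possible because only the ChIP samples have peak lists and no test ran over samples. Coding/coding and coding/lncRNA pairs could not be compared with protein-coding genes alone. With 2 ChIP samples and no read counts, variation between samples could not be estimated, and depth sets which weak peaks enter a list.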

Other observations

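Summits far inside a gene lay more often past the plus-strand start than past the minus-strand start of head-to-head pairs. Of 161 pairs, 11 (6.83%) had the summit more than 300 bp past the plus-strand start and 2 (1.24%) more than 300 bp past the minus-strand start. Among single-gene promoter peaks the counts were 39 of 299 (13.04%) for plus-strand genes and 24 of 308 (7.79%) for minus-strand genes. The split was noticed in the data and was not tested. Examples, chosen after their values were seen, are Hras/Lrrc56, Moap1/Tmem251 and Tbc1d16/Ccdc40, whose summit was 869 bp inside Ccdc40.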
